A study of Rattus norvegicus with 64 samples.

Results

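The imprinted growth genes followed here are 9 genes of a list of 10: Igf2, H19, Dlk1, Peg3, Ndn, Snrpn, Plagl1, Cdkn1c and Grb10. They were listed by name, and Meg3, the other listed gene, was not analysed here. The counts cover 17260 genes, of which 15969 had at least 1 count. Total RNA, depleted of ribosomal RNA, was sequenced from untreated Long Evans rats, from the entorhinal cortex, the gate between neocortex and hippocampus. The 64 libraries covered the medial (MEC) and the lateral entorhinal cortex (LEC), in each of them layer II (LII) and the deeper layers III to VI together (LDeep), at postnatal days 2, 9, 23 and 45 (P2, P9, P23 and P45). Each of the 4 combinations of region and layer had 5, 4, 3 and 4 libraries at these ages, which makes 16 groups. The pieces were cut by hand from slices under a microscope, so each library mixed all cell types of its layer, and fewer cells of a type cannot be told apart from less RNA per cell. The labels number the replicates without saying which libraries came from the same rat. The p-values therefore measure the spread between libraries, several of which may share a rat.

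Imprinted genes are transcribed mainly from the copy inherited from the mother or from the father, according to DNA methylation marks set in the germ line. Many of them raise or restrain growth before and after birth, and their expression in most tissues falls after birth, while some stay active in the brain. In the adult brain Igf2 is known to be made mainly by the meninges, the choroid plexus and blood vessels rather than by neurons. Total expression was measured here, so the parental copies were not distinguished.

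The members have different roles. Igf2, a growth factor, is read from the paternal copy in most tissues and from both copies in choroid plexus and leptomeninges, and H19, a long noncoding RNA read from the maternal copy, lies 81.02 kb from it on chromosome 1. In Rn6, the genome build of the counts, Igf2 covers chr1:215828102-215838209 and H19 chr1:215744404-215747080, both on the minus strand. Cdkn1c, an inhibitor of cyclin-dependent kinases, lies on the same chromosome at chr1:216661067-216663721. Grb10 (chr14:92021851-92117923) encodes an adaptor that dampens signaling of the insulin and IGF1 receptors, and Dlk1 (chr6:133576568-133583748) a transmembrane protein of the Notch ligand family that holds back differentiation. Plagl1 (chr1:7219587-7259536) and Peg3 (chr1:70210849-70237450) encode zinc finger proteins, Ndn (chr1:122981755-122983354) a MAGE family protein of postmitotic neurons, and Snrpn (chr1:195074328-195096460) a core protein of the spliceosome. All counts are of exonic reads.

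A pair of precursors for microRNAs lies within the first locus, and their products are shown because they share its transcripts. Mir675 occupies 84 bases of an exon of H19, and its mature forms in RefSeq (build GRCr8, minus strand) span chr1:207161800-207161821 and chr1:207161766-207161786. Mir483 lies within Igf2, with mature forms at chr1:207247903-207247924 and chr1:207247865-207247886. The capitals mark the seed, bases 2 to 8 from the 5′ end, and no seed is shared among the 4.
rno-miR-675-5p: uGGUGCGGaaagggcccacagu
rno-miR-675-3p: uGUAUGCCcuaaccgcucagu
rno-miR-483-5p: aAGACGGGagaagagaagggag
rno-miR-483-3p: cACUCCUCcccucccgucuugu
The entry for Mir675 held 220 counts over all libraries, 178 of them in LII and 42 in LDeep, and 199 of them at P2 and P9 against 21 at P23 and P45. The entry for Mir483 held 9 counts, all in LII libraries. Such reads are fragments of longer RNA, and the mature forms were not measured by this assay.

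Windows upstream of the transcription start, taken from the same RefSeq annotation, are shown for Igf2, the member with the largest layer difference, and for Peg3. The Igf2 window (chr1:207250476-207250725, minus strand) belongs to the downstream one of its annotated starts, and the Peg3 window is chr1:76130744-76130993 (plus strand). Each holds the 250 bases before the start. Capitals mark the GC box GGGCGG in the first and GGGGCCCC, the core of the motif that Plagl1 protein is known to bind, in the other.
Igf2 start 2: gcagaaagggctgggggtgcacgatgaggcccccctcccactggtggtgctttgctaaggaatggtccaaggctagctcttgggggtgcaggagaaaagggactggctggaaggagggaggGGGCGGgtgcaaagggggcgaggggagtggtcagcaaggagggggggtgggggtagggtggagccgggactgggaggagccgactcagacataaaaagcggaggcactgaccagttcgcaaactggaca
Peg3 start 1: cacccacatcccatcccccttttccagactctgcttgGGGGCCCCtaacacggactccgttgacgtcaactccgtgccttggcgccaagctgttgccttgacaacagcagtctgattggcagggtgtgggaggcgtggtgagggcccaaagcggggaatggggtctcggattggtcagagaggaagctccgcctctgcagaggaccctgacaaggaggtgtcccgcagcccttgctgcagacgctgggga
The windows searched for these letters, at least those of Igf2, also reached past the start and so were longer than those printed. Searched on both strands, GGGCGG was found in 5 of the 8 windows that 7 of the members have, and in 30.5% of all 33469 windows. GGGGCCCC was found in 1 of the 8, that of Peg3, and in 0.753% of all windows. These matches describe letters and not binding.

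Libraries held 3894334 to 11439143 counts on genes (median 7569157.5), so that 1 count stood for 0.0874 to 0.257 CPM, which are counts scaled to a common library size. Library sizes were adjusted by TMM, and log2 fold changes (LFC) come from the quasi-likelihood test of edgeR over 12521 genes with Benjamini-Hochberg (BH) adjusted p-values, called at 0.05. All 9 members passed the filter on low counts. A total of 5 libraries stood apart from their group, with root mean square deviations of 0.604 to 0.874 on the log2 scale over genes, against at most 0.384 in the other 59. The library labelled MEC LII P2 replicate 1 held 0.598 CPM of Slc17a7, the glutamate transporter of cortical neurons, against at least 235 CPM in the 59, and 431 CPM of Zic1, against at most 82.1. The library labelled MEC LDeep P2 replicate 1 and that labelled MEC LII P2 replicate 3 carried meningeal markers in the reverse of their labels, with summed levels of 1315 and 183 CPM. That labelled MEC LII P2 replicate 1 was low in these markers as well, at 153.6 CPM. MEC LDeep P2 replicate 4 and LEC LDeep P45 replicate 4 had long transcripts raised over short ones, by 0.815 and 0.777 on the log2 scale, against -0.342 to 0.37 in the 59. All 64 libraries were kept in the values below unless stated, and leaving out these 5 was an alternative chosen after seeing the data.

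Per kilobase of exon, the members spanned 3 orders of magnitude. Snrpn had the highest median level over the 64 libraries at 685 CPM per kb, followed by Ndn at 240.0 and Peg3 at 82.2. Grb10 at 14.8, Igf2 at 12.3 and Cdkn1c at 8.07 CPM per kb formed a middle group, and Plagl1 reached 2.91. H19 at 0.637 and Dlk1 at 0.546 CPM per kb were the lowest, with 2160 and 942 counts over all libraries against 480733 for Snrpn. The ranges over libraries overlapped between Snrpn (264 to 1027) and Ndn (125 to 445) and between Ndn and Peg3 (46.3 to 135), but not between Snrpn and Peg3, nor between Peg3 and Grb10 (7.51 to 25.3). Those of Igf2 (0.404 to 157) and Cdkn1c (0.75 to 59.5) each spanned the level of Grb10, so the order within this middle group depended on the layer, and H19 (0 to 16.6) and Dlk1 (0 to 25.03) overlapped as well. In LII the median of Igf2 was 73.4 CPM per kb and that of Grb10 18.2, whereas in LDeep they were 3.58 and 12.3. Of the exon bases of Snrpn, 85.5% are shared with Snurf on the same strand, and pairs that overlapped several genes were counted for each, so the values of Snrpn are those of the joint Snurf-Snrpn transcript.

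**Figure D1:**
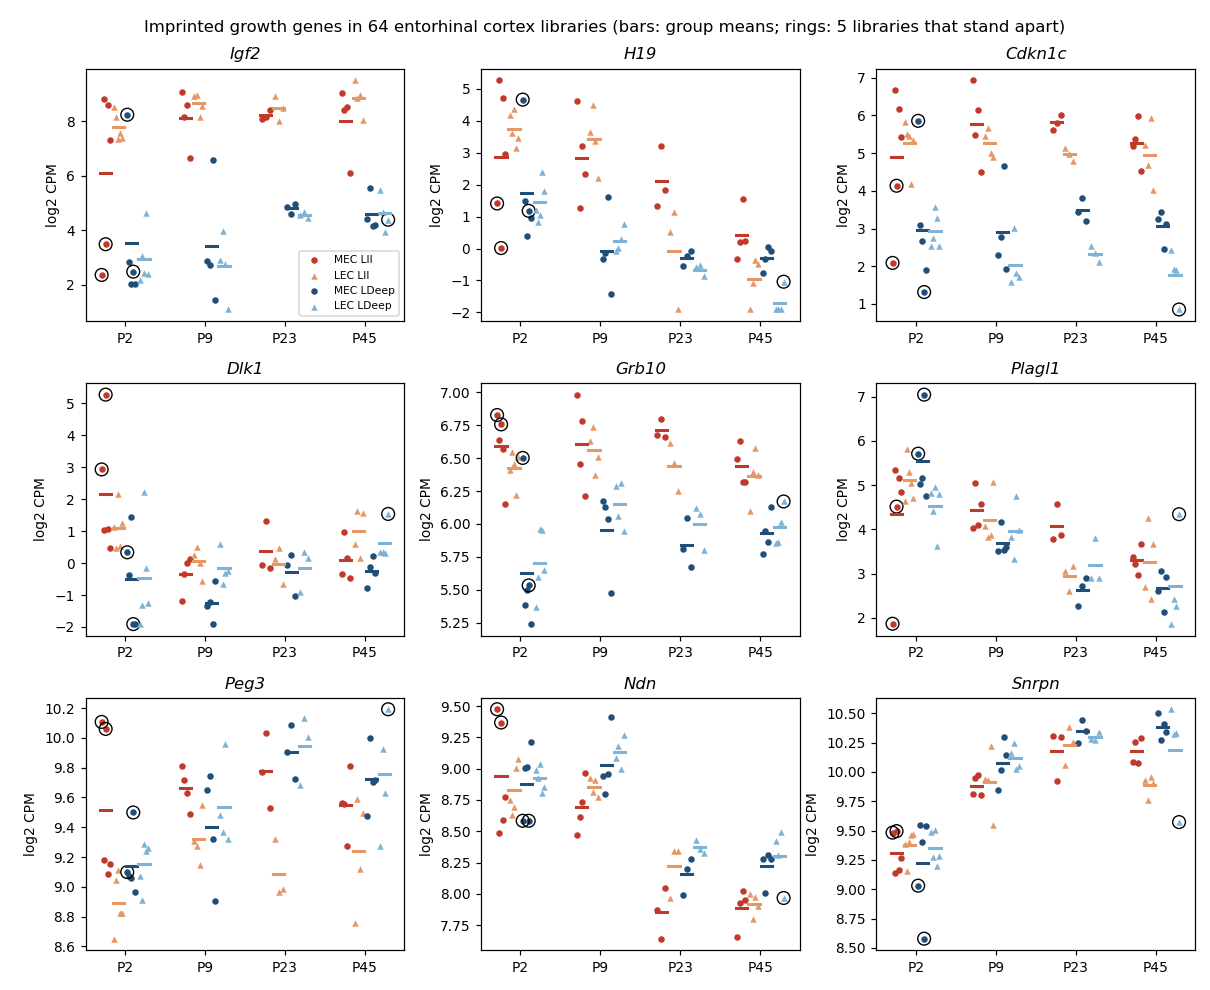
Each panel plots log2 CPM of 1 member (vertical axis) against age (horizontal axis) for the 64 libraries, colored by region and layer, with bars for the 16 group means and rings for the 5 libraries that stood apart. Igf2 and Cdkn1c separated by layer, with medians of 341 against 16.6 CPM and 41.9 against 5.55 CPM, while Ndn fell and Snrpn rose with age.

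The layer comparison asked which genes differ between LII and the deeper layers. Of the 9 members, 8 were called, against 54.0% of all genes tested. Higher in LII were 5 (23.5% of all genes) and lower 3 (30.5%). The members higher in LII were Igf2, Cdkn1c, H19, Dlk1 and Grb10, and those lower were Ndn, Peg3 and Snrpn. The median absolute LFC was 0.60 over the members and 0.16 over all genes tested.

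Igf2 had the largest layer difference of the members. In LEC at P2 it was at 365, 284, 161, 190.3 and 168 CPM in LII and at 4.27, 8.13, 5.12, 24.6 and 5.07 CPM in LDeep. At P9 the LEC libraries held 491, 505, 286 and 376 CPM in LII and 7.32, 15.5, 6.57 and 1.88 CPM in LDeep. In both ages every LII value lay above every LDeep value. The LEC levels at P23 were 480.1, 259.7 and 363 CPM in LII and 23.2, 25.1 and 21.5 CPM in LDeep. At P45 they were 729, 466, 493 and 265 CPM in LII and 44.3, 25.3, 15.1 and 20.7 CPM in LDeep. The layers again did not overlap, and the LDeep values at these later ages were mostly above those at P2 and P9.

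In MEC at P2, Igf2 stood at 4.89, 451, 10.97, 384 and 160.4 CPM in LII and at 302, 6.87, 3.82, 5.34 and 3.86 CPM in LDeep. Here the layers overlapped, because the libraries labelled LII replicates 1 and 3 were low and that labelled LDeep replicate 1 was high, which are 3 of the 5 that stood apart. MEC libraries at P9 held 534, 286, 383 and 101 CPM in LII and 7.13, 6.43, 95.3 and 2.48 CPM in LDeep. At P23 the MEC values were 268, 286 and 344 CPM in LII and 28.7, 24 and 30.8 CPM in LDeep. For P45 they were 518, 338, 366 and 67.7 CPM in LII and 21.3, 46.6, 17.8 and 18.2 CPM in LDeep. LII lay above LDeep in 7 of the 8 combinations of region and age with all libraries and in 8 of 8 without the 5. Over regions and ages the difference had an LFC of 3.82 (SE 0.37, adjusted p = 7.72e-13) and a 95% interval of 3.09 to 4.55, and without the 5 libraries the LFC was 4.37. It was 3.04 within MEC and 4.6 within LEC.

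Cdkn1c was also higher in LII. In LEC it was at 56.7, 45.01, 43.9, 17.8 and 40.2 CPM in LII and 5.502, 6.48, 11.5, 9.41 and 5.53 CPM in LDeep at P2. The LEC values at P9 were 43.9, 50.95, 31.8 and 29.4 CPM in LII and 2.702, 7.88, 3.28 and 3.03 CPM in LDeep. MEC at P2 gave 3.99, 101, 17.3, 71.3 and 42.4 CPM in LII and 57.7, 8.27, 6.13, 2.22 and 3.497 CPM in LDeep. The layers overlapped in MEC at P2 through the same 3 libraries as for Igf2, and in MEC at P9, where LII held 122, 44.6, 70.4 and 22.2 CPM and LDeep 4.62, 6.59, 25.1 and 3.51 CPM. At P23 LII libraries of both regions ranged over 27.4 to 64.4 CPM (median 41.9, n = 6) and LDeep over 4.07 to 13.7 CPM (median 7.28, n = 6). At P45 the ranges were 15.9 to 63.6 CPM (median 36.6, n = 8) in LII and 1.54 to 10.6 CPM (median 5.18, n = 8) in LDeep. LII was above LDeep in 6 of 8 combinations and in 7 of 8 without the 5 libraries. The difference had an LFC of 2.53 (SE 0.24, adjusted p = 2.76e-13), and the LFC was 2.76 without the 5.

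H19 was low and followed the same direction. At P2 it ranged over 0.744 to 38.6 CPM (median 11.3, n = 10) in LII and 1.04 to 25.1 CPM (median 2.01, n = 10) in LDeep. At P9 the ranges were 2.13 to 24.2 CPM (median 9.43, n = 8) and 0.103 to 2.79 CPM (median 0.708, n = 8). Most LII libraries exceeded the LDeep libraries at both ages, with overlap in MEC. At P23 MEC held 2.235 to 8.96 CPM in LII (n = 3) and 0.414 to 0.684 CPM in LDeep (n = 3), without overlap. In LEC at P23 the layers overlapped, with 0 to 1.94 CPM in LII (n = 3) and 0.281 to 0.426 CPM in LDeep (n = 3). By P45 most libraries of both layers were near the limit of detection. The values were 0 to 2.68 CPM (median 0.522, n = 8) in LII and 0 to 0.767 CPM (median 0.27, n = 8) in LDeep. The layer difference had an LFC of 2.36 (SE 0.44, adjusted p = 1.12e-05), and an LFC of 2.88 without the 5 libraries, and LII lay above LDeep without overlap in 3 of 8 combinations (4 of 8 without the 5).

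Grb10 differed less but regularly. LII libraries held 68.2 to 126 CPM (median 90.7, n = 32) and LDeep libraries 37.5 to 90.4 CPM (median 61.5, n = 32). The highest LDeep value, 90.4 CPM, came from the library labelled MEC LDeep P2 replicate 1, and without the 5 libraries LII lay above LDeep in 8 of 8 combinations (6 of 8 with all). The difference had an LFC of 0.6 (SE 0.062, adjusted p = 5.37e-12), and an LFC of 0.63 without the 5. Dlk1 was called as well (LFC 1.08, SE 0.36, adjusted p = 0.00979), but its layers overlapped in all 8 combinations, and the LFC fell to 0.76 without the 5 libraries (adjusted p = 0.02297).

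The other 3 called members were slightly lower in LII. Ndn had an LFC of -0.23 (SE 0.056, adjusted p = 4.08e-04), Peg3 an LFC of -0.2 (SE 0.071, adjusted p = 0.0153) and Snrpn an LFC of -0.15 (SE 0.052, adjusted p = 0.0138). In each case the libraries of the layers overlapped in at least 7 of 8 combinations, and without the 5 libraries the LFCs were -0.31, -0.22 and -0.21. The calls were lost in 2 (Peg3) and 3 (Snrpn) of the 16 fits that each left out the libraries of 1 replicate number at 1 age, and Ndn kept its call in all 16. Under limma voom with TMM and quantile normalization, as the methods of the study state, none of the 3 was called (adjusted p = 0.06895 for Ndn, 0.3301 for Peg3 and 0.688 for Snrpn), nor was Dlk1 (0.134), which left 4 members called, while 6689 genes were called in all against 6767. Plagl1 was not called with all libraries (LFC 0.34, interval -0.0038 to 0.68, adjusted p = 0.0965). Without the 5 libraries its LFC was 0.6 with an adjusted p of 4.57e-05, which made 9 of 9 members called, while the genes called in all rose from 6767 to 7635. The library labelled MEC LII P2 replicate 1 held the lowest Plagl1 of its group, at 3.39 CPM, and MEC LDeep P2 replicate 4 the highest of its own, at 131.7 CPM.

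Age by age, the layer contrast called 5 members at P2 (19.2% of all genes), 5 at P9 (33.0%), 4 at P23 (25.9%) and 5 at P45 (26.4%). Igf2, Cdkn1c and Grb10 were higher in LII at each of the 4 ages. From P2 to P45 the LFCs of Igf2 were 3.12, 4.55, 3.71 and 3.92, with standard errors of 0.63 to 0.82, and 5.34, 4.54, 3.71 and 3.88 without the 5 libraries. The value at P2 thus depended on libraries that stood apart, and the call did not. That of Cdkn1c ran from 1.97 at P2 to 2.87 at P9, and that of Grb10 from 0.45 at P45 to 0.8 at P2. The P2 values of Cdkn1c and Grb10 were 2.96 and 0.89 without the 5 libraries. In MEC alone Igf2 was not called at any single age (adjusted p from 0.0674 at P45 to 0.359 at P2), Cdkn1c was called at P9 and Grb10 at P2, P9 and P23, while in LEC alone these 3 were called at each age except Grb10 at P23 (adjusted p = 0.0664). H19 was called at P2 (LFC 1.76, SE 0.48, adjusted p = 0.00628, and LFC 3.04 without the 5) and P9 (LFC 3.4, SE 0.62, adjusted p = 1.75e-05). At P23 and P45 it was not, with adjusted p of 0.0621 and 0.253, and with intervals, which are not adjusted, of 0.46 to 4.07 and -0.44 to 4.45. Ndn was lower in LII at P9 (-0.34) and P45 (-0.37), Peg3 at P23 (-0.49) and Snrpn at P45 (-0.28). Dlk1 was called at P2 only (LFC 2.25, SE 0.54, adjusted p = 0.00166), and not without the 5 libraries (LFC 0.76, adjusted p = 0.248).

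Layer II lies near the brain surface, and markers of meningeal fibroblasts moved with the layer. Of 16 such markers, 14 were higher in LII and 2 (Dcn and Nov) lower, with a median LFC of 3.81 over the list and -0.048 over all genes. The summed level of the 16 ranged from 153.6 to 2292 CPM in LII (median 1416) and from 193.6 to 1315 CPM in LDeep (median 599.8). No marker was at 0 in all libraries, and Ogn was at 0 in 25 LDeep libraries. The 14 markers higher in LII, a set picked by that outcome, summed to a median of 1128 CPM in LII and 96.8 CPM in LDeep. Without the 5 libraries this sum ranged over 244 to 1806 CPM in LII and 48.9 to 305 CPM in LDeep. The layers did not overlap in it within any of the 8 combinations of region and age, which the choice of markers favors. The sum of all 16 did overlap in MEC at P45, with 458.3 to 1452 CPM in LII and 463.4 to 653.2 CPM in LDeep. Endothelial (7 of 7 tested), pericyte and smooth muscle (8 of 8), choroid plexus (4 of 5), astrocyte (7 of 8), dividing-cell (7 of 8) and microglia markers (6 of 8) were also higher in LII. Of 8 neuron markers 1 was higher and 4 lower in LII, and of 8 oligodendrocyte markers 0 were higher and 5 lower.

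The 64 libraries differ in layer, so r over them also reflects the difference between the layers. Pearson's r of log2 CPM with the log2 of the 14-marker sum was 0.88 for Igf2, 0.899 for Cdkn1c, 0.679 for Grb10 and 0.609 for H19. Over deviations from the 16 group means it was 0.898, 0.837, 0.271 and 0.65. With all libraries, Igf2 and Cdkn1c thus varied with the markers among replicates of a group as well, while Grb10 did so less. These deviations include the 5 libraries that stood apart, and r over deviations without them was not computed. For Igf2 the spread was widest in MEC LII and MEC LDeep at P2 (SD of log2 CPM 2.99 and 2.66), which hold such libraries. Over the levels, r without the 5 was 0.881, 0.909, 0.741 and 0.598 in the same order of genes. With the sum of the whole list, r over the 64 libraries was 0.881 for Igf2, 0.724 for Cdkn1c, 0.624 for Grb10 and 0.297 for H19, and among LII libraries alone (n = 32) it was 0.973, 0.739, -0.116 and 0.185. With the mean log2 level of the 16 markers as a covariate, which itself separates the layers, the LFC of Igf2 was -0.26 (adjusted p = 0.312), that of Cdkn1c 0.14 (0.739) and that of H19 -0.5 (0.653). Grb10 kept an LFC of 0.36 (adjusted p = 0.0234), and Dlk1 had 3.13 (adjusted p = 1.52e-04). Under this covariate 2 members and 1739 genes were called, against 8 and 6767 without it, and the part of the meninges and vessels in the layer differences of the members was not tested directly.

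**Figure D2:**
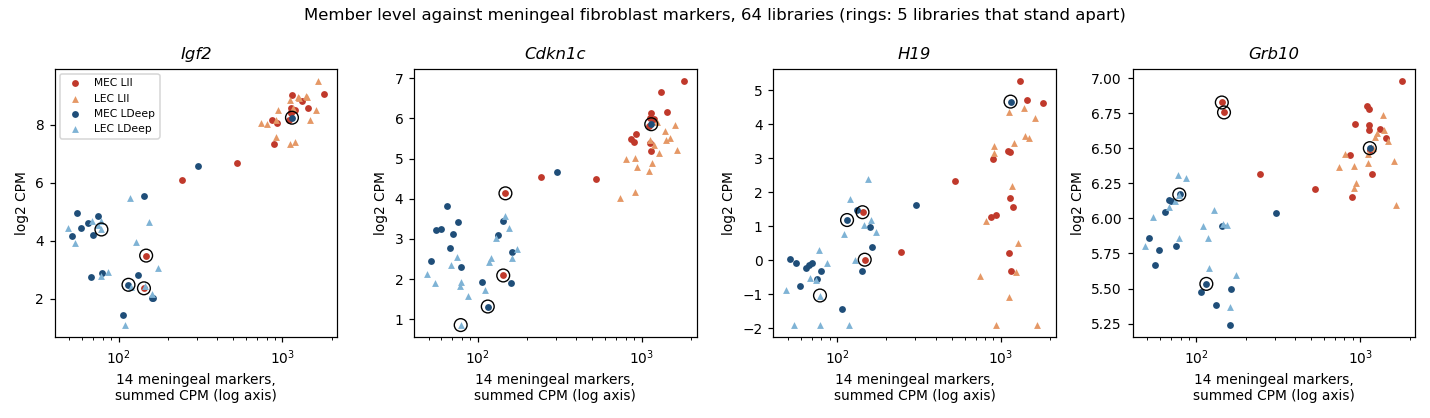
Log2 CPM of Igf2, Cdkn1c, H19 and Grb10 (vertical axes) is plotted against the summed CPM of 14 meningeal markers (horizontal log axis) in 64 libraries, colored by region and layer, with rings on the 5 that stood apart. Igf2 rises along the axis over all libraries (r = 0.88), and the library labelled MEC LDeep P2 replicate 1 sits among the LII libraries at 1144 CPM of markers and 302 CPM of Igf2.

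**Figure D3:**
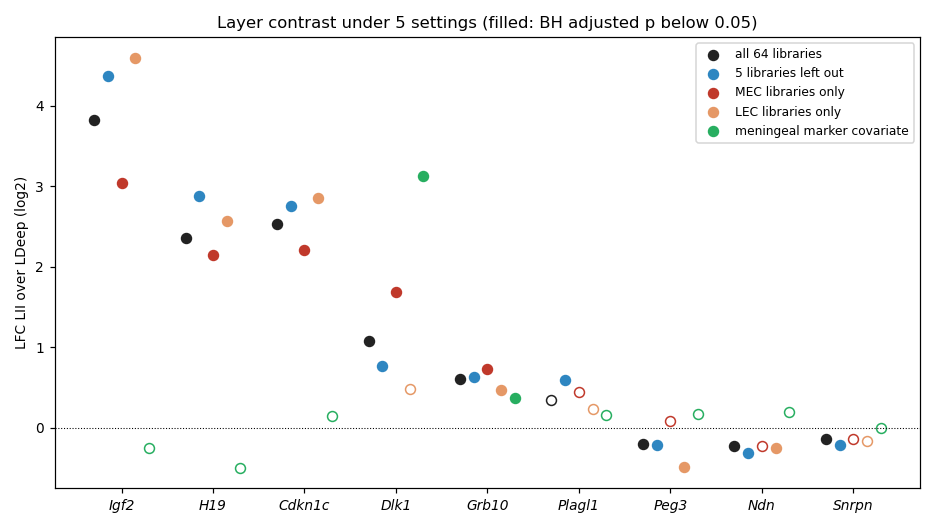
The LFC of LII over LDeep (vertical axis, log2) is plotted for each member with all 64 libraries, without 5 libraries, in MEC only, in LEC only, and with the meningeal covariate, filled where the BH adjusted p was below 0.05. Igf2 stays between 3.04 and 4.6 without the covariate and is at -0.26 with it.

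The age comparison contrasted the younger (P2/P9) with the older animals (P23/P45), with the combinations of region and layer weighted equally. Of the 9 members, 5 were called, against 81.6% of all genes. Higher in the younger animals were H19, Plagl1 and Ndn (40.6% of all genes were), and lower were Snrpn and Peg3 (41.0%). The median absolute LFC was 0.40 over the members and 0.46 over all genes.

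Ndn fell between P9 and P23. In MEC LII it was at 355, 392.4, 425 and 501 CPM at P9 and at 234, 199.5 and 265 CPM at P23. MEC LDeep held 491, 446, 497 and 681 CPM at P9 and 254, 293 and 310.4 CPM at P23. In both layers all P9 values lay above all P23 values. LEC LII had 486, 448, 479 and 438 CPM at P9 and 250.4, 325 and 324 CPM at P23, and LEC LDeep 544, 581, 512 and 616 and 345, 327 and 321 CPM. Within each of the 4 combinations of region and layer, every library of the younger animals exceeded every library of the older ones. Ndn was the only member of the 9 for which this held in all 4. The share of all genes with such a separation was not computed, while 81.6% of them were called by age. Over all libraries the levels were 355 to 711 CPM (median 486, n = 36) and 199.5 to 361 CPM (median 262, n = 28). The contrast gave an LFC of 0.8 (SE 0.057, adjusted p = 8.58e-19), and the step from P9 to P23 an LFC of -0.77 (SE 0.085, adjusted p = 2.26e-11). From P2 to P9 the LFC was 0.0065 (interval -0.14 to 0.15).

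Snrpn rose over the same period. Its levels were 382 to 747 CPM (median 673, n = 20) at P2, 747 to 1258 CPM (median 1019, n = 16) at P9, 971 to 1390 CPM (median 1252, n = 12) at P23 and 761 to 1483 CPM (median 1230, n = 16) at P45. The increase was spread over the first steps, with an LFC of 0.66 (SE 0.068, adjusted p = 2.91e-12) from P2 to P9 and an LFC of 0.28 (SE 0.077, adjusted p = 0.00157) from P9 to P23. The contrast of younger over older animals had an LFC of -0.56 (SE 0.051, adjusted p = 1.36e-14). Ndn and Snrpn, which belong to 1 imprinted region in human and mouse, thus changed in opposite directions with age. Peg3 rose as well, from 402 to 1102 CPM (median 546, n = 20) at P2 to 499 to 1124 CPM (median 859, n = 12) at P23, with an LFC of -0.3 (SE 0.070, adjusted p = 1.29e-04) for younger over older animals.

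Plagl1 fell at each early step. Levels were 3.39 to 132 CPM (median 29.5, n = 20) at P2, 9.82 to 33.5 CPM (median 15.9, n = 16) at P9, 4.56 to 23.4 CPM (median 7.65, n = 12) at P23 and 3.37 to 20.04 CPM (median 7.42, n = 16) at P45. The ranges of neighboring ages overlapped, and the contrast had an LFC of 1.43 (SE 0.18, adjusted p = 2.42e-10). From P2 to P9 the LFC was -0.94 and from P9 to P23 -0.9.

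H19 had the largest age difference of the members. In LEC LII it was at 17.98, 11.9, 20.5, 8.58 and 10.8 CPM at P2 and at 12.3, 22.1, 9.96 and 4.32 CPM at P9. The same layer held 1.16, 1.94 and 0 CPM at P23 and 0, 0.204, 0.513 and 0.454 CPM at P45. The younger libraries all exceeded the older ones there and in LEC LDeep, while in MEC they overlapped. MEC LII held 2.39, 38.6, 0.744, 26.2 and 7.54 CPM at P2 and 0.532, 0.894, 2.68 and 0.911 CPM at P45. H19 was at 0 counts in 5 of 64 libraries, all at P23 or P45, and LEC LDeep at P45 held 1 count in its 4 libraries, so no fold over that group is given, and the fitted LFCs below, which include it, are not bounds. The contrast had an LFC of 3.09 (SE 0.40, adjusted p = 5.74e-10), with LFCs of 2.22 in MEC and 3.96 in LEC. The steps had an LFC of -1.23 (SE 0.39, adjusted p = 0.005396) from P2 to P9 and an LFC of -1.66 (SE 0.55, adjusted p = 0.00743) from P9 to P23.

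Markers of other cells also moved with age. All 8 markers of dividing cells were higher in the younger animals (median LFC 3.33), and all 8 oligodendrocyte, 7 of 8 astrocyte, 7 of 8 microglia and 6 of 8 neuron markers were lower. Without the 5 libraries the age LFCs were 3.13 for H19, 1.49 for Plagl1, 0.76 for Ndn, -0.57 for Snrpn and -0.35 for Peg3. The part of other cell types in the age differences of the members was not tested. Without the 5 libraries the 14 meningeal markers, picked by layer, had median sums from P2 to P45 of 1255, 1148, 1019 and 1136 CPM in LII. In LDeep these sums were 156.7, 96.8, 66.6 and 70.2 CPM. The whole list of 16 had medians of 270.5, 622.7, 749.8 and 653.2 CPM in LDeep. The direction with age there thus depended on which markers were summed. With the meningeal covariate the age LFC of H19 was 3.26. Of the 16 meningeal markers, 2 were higher and 3 lower in the younger animals.

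Igf2, Dlk1, Cdkn1c and Grb10 were not called by age. Igf2 had an LFC of -0.4 (SE 0.33, adjusted p = 0.263), which became -0.78 without the 5 libraries (adjusted p = 0.00171), so that 6 members and 10479 genes were then called (10215 genes with all libraries), and -0.83 without replicate 1 of P2 alone (adjusted p = 0.00265). By region its LFC was 0.18 in MEC and -0.97 in LEC (adjusted p = 0.793 and 2.67e-04). In LDeep, Igf2 ranged over 3.82 to 24.6 CPM (median 5.09, n = 8) at P2 and 15.1 to 46.6 CPM (median 21.3, n = 7) at P45 without these libraries, and in LII over 160.4 to 451 CPM (median 237, n = 8) and 67.7 to 729 CPM (median 416, n = 8). The intervals of the age contrast were -0.14 to 0.78 for Cdkn1c, -0.12 to 0.12 for Grb10 and -0.65 to 0.92 for Dlk1.

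Step by step, 6 members were called from P2 to P9 (63.4% of all genes), 4 from P9 to P23 (64.6%) and none from P23 to P45 (3.85%). At the last step H19 had the largest change, with an LFC of -1.62 (interval -3.16 to -0.071, adjusted p = 0.303). Grb10 rose slightly from P2 to P9 (LFC 0.2, SE 0.082, adjusted p = 0.02699), as did Peg3 (LFC 0.28, SE 0.093, adjusted p = 0.00784).

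**Figure D4:**
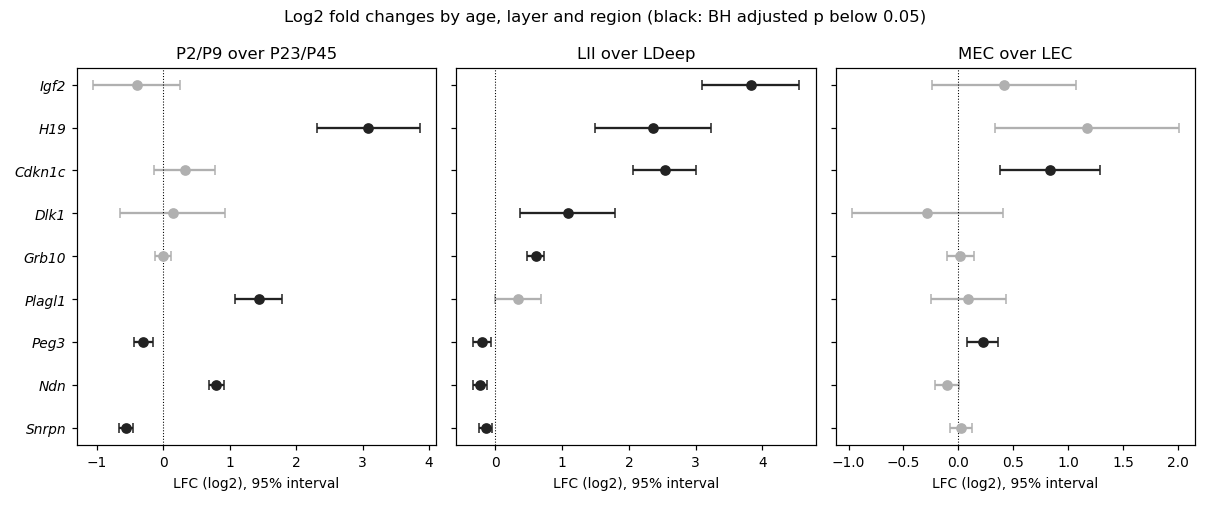
LFC with its 95% interval (horizontal axes) is plotted for the 9 members in the age, layer and region contrasts, in black where the BH adjusted p was below 0.05. H19, Plagl1 and Ndn lie to the right in the age panel, Igf2 at 3.82 and Cdkn1c at 2.53 in the layer panel, and in the region panel Cdkn1c (0.83) and Peg3 (0.22) are black.

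Between the regions, the contrast of MEC over LEC called 2 of 9 members, against 15.4% of all genes, and both were higher in MEC (8.87% of all genes were higher and 6.53% lower). In LDeep at P23 Cdkn1c was at 10.5, 13.7 and 8.999 CPM in MEC and 5.57, 4.83 and 4.07 CPM in LEC. In LDeep at P45 the values were 9.27, 10.6, 5.24 and 8.37 and 5.11, 3.52, 3.503 and 1.54 CPM. MEC lay above LEC in both, and in LII at P23, with overlap in the other 5 combinations of layer and age. Cdkn1c differed with an LFC of 0.83 (SE 0.23, adjusted p = 0.00857), and 0.67 without replicate 3 of P9 (adjusted p = 0.0528), the 1 of the 16 fits that lost the call, and 0.72 without the 5 libraries. Under limma voom with TMM and quantile normalization, where 2000 genes were called in all against 1928, neither gene was called (Cdkn1c LFC 0.58, adjusted p = 0.144, and Peg3 LFC 0.17, adjusted p = 0.08195). Of the 16 meningeal markers 0 were called higher and 1 lower in MEC, with a median LFC of 0.406 over the list and 0.006 over all genes. With the meningeal covariate the LFC of Cdkn1c was 0.76, and the part of the meninges in this difference was not tested.

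Peg3 was higher in MEC (LFC 0.22, SE 0.071, adjusted p = 0.0238), and with 3 of the libraries that stood apart left out (those labelled MEC LII P2 replicates 1 and 3, MEC LDeep P2 replicate 1) the LFC was 0.16 with an adjusted p of 0.0824. Its call was lost in 6 of the 16 fits that left out 1 replicate number at 1 age, with LFCs over all 16 of 0.19 to 0.25. H19 missed the threshold (LFC 1.17, SE 0.43, adjusted p = 0.0527) and passed it without the 5 libraries (1.22, adjusted p = 0.0235), as did Ndn in the other direction (-0.14, adjusted p = 0.0167), which made 4 members and 2351 genes called. For the remaining members the intervals were -0.24 to 1.07 (Igf2), -0.97 to 0.4 (Dlk1), -0.078 to 0.12 (Snrpn), -0.25 to 0.43 (Plagl1) and -0.1 to 0.14 (Grb10).

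Peg3 was the member called in the interactions. The layer by age interaction called 1 of 9 members (8.80% of all genes), the layer by region interaction 1 (1.25%) and the region by age interaction 0 (4.38%). In LEC, Peg3 was lower in LII at P23, with 639, 499 and 506 CPM in LII and 824, 1124 and 1029 CPM in LDeep. MEC at P23 held 872, 1045 and 738 CPM in LII and 960.4, 1088 and 845 CPM in LDeep. The layers did not overlap in LEC and overlapped in MEC at this age. In MEC at P2, LII held 1102, 579, 1068, 544 and 568 CPM and LDeep 548, 538, 532, 723 and 501 CPM, and the pair of values above 1000 came from libraries that stood apart. The layer LFC was 0.087 in MEC and -0.49 in LEC, and the difference of these in the joint fit had an LFC of 0.57 (SE 0.14, adjusted p = 0.0218). The layer LFC at P2/P9 exceeded that at P23/P45 by 0.44 (SE 0.14, adjusted p = 0.0369). Without the 5 libraries these were 0.44 (adjusted p = 0.0239) and 0.31 (adjusted p = 0.0651), so the interaction with age was no longer called. With only the 3 libraries of MEC at P2 left out neither was called (0.44, adjusted p = 0.0566, and 0.33, adjusted p = 0.083), and with the meningeal covariate that with region was not (0.44, adjusted p = 0.0884). Leaving out 1 replicate number at 1 age ended the call in 6 of 16 fits for the interaction with region and in 9 of 16 for that with age.

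Dlk1 was low in most libraries, and its highest values were at P2. MEC LII at P2 held 7.38, 1.79, 38.5, 1.82 and 1.13 CPM and MEC LDeep 0.999, 0.509, 2.43, 0 and 0 CPM. LEC LII held 1.91, 1.13, 4.19, 1.18 and 2.12 CPM and LEC LDeep 0, 0.138, 4.403, 0.636 and 0.154 CPM. Replicate 3 was the highest library of its group in all 4, and the library labelled MEC LII P2 replicate 1 was the highest of the rest at 7.38 CPM. The same 4 replicate 3 libraries held genes of dopamine neurons, which are known to express Dlk1: Th, the rate-limiting enzyme of dopamine synthesis, stood at 20.6 to 437 CPM against at most 5.11 in the other 60. Slc6a3, the dopamine transporter, was at 1.05 to 442 CPM against at most 0.577, and Lmx1a, a transcription factor of these neurons, at 1.74 to 34.9 CPM against at most 1.97. The part of such cells in the level of Dlk1 was not tested. The step from P2 to P9 (LFC -2.08, SE 0.48, adjusted p = 1.73e-04) was not called when replicate 3 of P2 was left out (LFC -0.73, adjusted p = 0.111). Without it the age contrast turned from 0.14 to -0.54 (adjusted p = 0.05398).

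**Figure D5:**
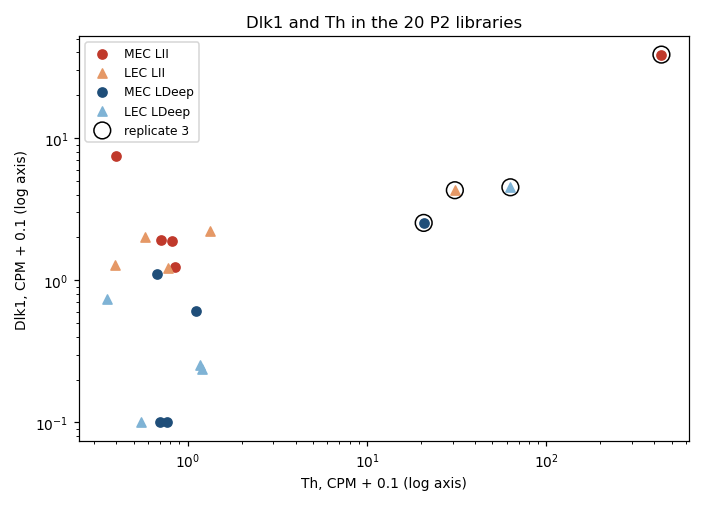
Dlk1 (vertical log axis, CPM + 0.1) is plotted against Th (horizontal log axis, CPM + 0.1) in the 20 libraries at P2, colored by region and layer, with rings on replicate 3. The 4 ringed libraries lie at 20.6 CPM of Th or more, apart from the other 16, which do not exceed 1.23 CPM.

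The genes most like each member were found by Pearson's r of log2 CPM over the 64 libraries. These differ in age, layer and region, so r describes a common pattern over the groups. Igf2 was most like Aldh1a2 (0.98), Col3a1 (0.976) and Colec12 (0.974), and Cdkn1c most like Wdr86 (0.924), Tbx18 (0.923) and Foxc1 (0.92). Aldh1a2, Col3a1 and Foxc1 are in the meningeal list above. Igf2 and Cdkn1c had r = 0.89 with each other, and Igf2 and H19 r = 0.42, or 0.678 over deviations from the group means. Ndn was most like Sae1 (0.956) and Tubb2a (0.939), a tubulin, whereas the genes most like Snrpn included Slc25a3 (0.966), the mitochondrial phosphate carrier. Ndn and Snrpn had r = -0.378 over the levels and 0.656 over the deviations.

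Prcp (0.882), Ets1 (0.854) and Angptl4 (0.842) were nearest to H19, and over deviations from the group means the genes of mast cells Cma1 (0.782), Mcpt1l1 (0.781) and Cpa3 (0.774). Here and above, the deviations include the 5 libraries that stood apart. Without these 5, r of H19 with Cma1 over the levels was 0.827. Cma1 had medians of 15.9 CPM in LII at P2, 4.86 at P9 and 0 at P23 and P45. In LDeep at P2 its median was 0.136 CPM and its highest value 73.8 CPM. Peg3 was most like Osbpl6 (0.838), Plagl1 most like Runx1t1 (0.875), and Grb10 most like Vcl (0.855). Dlk1 had no close match, with Vwa5b1 at 0.608, Zfp521 at 0.597 and Slc6a3 at 0.586. Without the 5 libraries r with Slc6a3 was 0.409.

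Other imprinted genes were read from a list of 59, of which 44 had counts entries and 41 were tested. By age, 15 were higher in the younger animals, 15 lower and 11 not called, where 40.6% of all genes were higher and 41.0% lower (median LFC 0.07 over the list and -0.006 over all genes). The imprinted genes with the largest decrease to the older ages, among those with a mean of at least 1 CPM, were Calcr, the calcitonin receptor (LFC 5.24, SE 1.63, with a median of 0 CPM at P23 and P45), Zim1 (3.44), Peg12 (2.33) and Nnat, a small membrane protein of developing brain (1.66). Rasgrf1, an exchange factor for Ras (-2.18), Impact (-1.40), Slc22a18 (-1.30) and Cd81 (-1.05) were lower in the younger animals. By layer 8 were higher in LII, 15 lower and 18 not called, where 23.5% of all genes were higher and 30.5% lower. Slc22a18 (1.71) and Phactr2 (1.10) were higher, and Slc38a4, an amino acid transporter (-1.81), and Sfmbt2 (-0.94) lower. By region 1 was higher in MEC, Inpp5f (0.38), and 1 lower, Slc22a3 (-0.53), where 15.4% of all genes were called.

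Around Igf2, 24 genes of the IGF pathway were tested of 30 listed. In the younger animals 16 were higher, 6 lower and 2 not called (40.6% and 41.0% of all genes were higher and lower). Igf2bp1 (LFC 4.28) and Igf2bp2 (3.17), RNA-binding proteins of fetal tissue that bind Igf2 mRNA, were among the higher ones, with the IGF-binding protein gene Igfbp4 (1.5) and Pappa, a protease that cleaves IGF-binding proteins (1.49). Igfbp6 (-2.25), Igfbp7 (-1.17) and the transcription factors Foxo3 (-1.34) and Foxo1 (-0.72) were lower. By layer, 9 were higher in LII, 4 lower and 11 not called (23.5% and 30.5% of all genes). Igfbp2 (2.42), which is also in the meningeal list, and Igf2bp1 (1.84) were higher in LII, and Grb14 (-0.45), a relative of Grb10, was among those lower. By region, 3 were higher in MEC, led by Foxo3 (0.30) and Igfbp3 (0.28), and 3 lower, led by Foxo1 (-0.4) and Igfbp5 (-0.29), with 18 not called (8.87% and 6.53% of all genes were higher and lower).

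Of 19 genes for partners and regulators of the members, 15 were higher in the younger animals, 1 lower and 3 not called, beside 40.6% and 41.0% of all genes. Among them were Zfp57, a zinc finger protein that maintains imprints (1.72), Dnmt1, the maintenance DNA methyltransferase (1.24), Cdk4, a cell cycle kinase (1.34), and Snrpa (1.13). Plag1, a relative of Plagl1, was lower (-1.12). By layer 4 were higher in LII, with the cyclins Ccnd2 (0.55) and Ccnd1 (0.40), 5 lower, with Siah1 (-0.22) and Zfp57 (-0.20), and 10 not called (23.5% and 30.5% of all genes were higher and lower). By region 2 were higher in MEC, Cdkn1a (0.31) and E2f1 (0.26), 2 lower, Zfp57 (-0.22) and Maged1 (-0.089), and 15 not called (8.87% and 6.53% of all genes).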

How the data were processed

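Per the labels and the methods of the study, layers were dissected from 400 µm slices of untreated Long Evans rats, and libraries were made with the TruSeq Stranded Total RNA kit with Ribo-Zero Gold and read as pairs on an Illumina HiSeq instrument. The authors demultiplexed the reads with bcl2fastq 1.8.4, trimmed them with Trimmomatic 0.33, aligned them with STAR 2.4.0 and counted read pairs per gene with featureCounts (Subread 1.4.6-p1), using strand, on the RefSeq annotation of Rn6. A pair that overlapped several genes was counted for each. The deposited counts are whole numbers for 17260 genes in 64 libraries, with no normalization.

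From these counts, CPM used TMM library sizes (edgeR 4.0.16, R 4.3.3), and log2 CPM a prior count of 2. A single fit of edgeR's quasi-likelihood test held 1 mean for each of the 16 groups. It covered the 12521 genes kept by filterByExpr, and its contrasts weighted groups equally (BH adjusted p, threshold 0.05). Standard errors were the absolute LFC over the square root of F, and 95% intervals the LFC plus or minus 1.96 SE. Totals of 3894334 to 11439143 counts limit the precision of H19 and Dlk1, and counting error is part of these intervals. The test was checked on simulated data. No 2 replicates held the same counts. Alternatives were limma 3.58.1 voom, DESeq2 1.42.0, RLE size factors, other filters, single regions, a replicate block, summed libraries, leaving out replicates and a meningeal covariate. Leaving out libraries that stood apart was chosen after seeing the data. The deviation of a library was the root mean square, over genes with a mean above 1 CPM, of its log2(CPM + 0.5) minus the median of its group, and the length shift the median deviation of genes over 5 kb minus that of genes under 1.5 kb.

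Named were all members, then per pathway list up to 4 genes a direction with the largest absolute LFC by age and up to 2 by layer and region, among called genes with a mean of at least 1 CPM, and per member the 3 genes of highest r. Members and lists were chosen with earlier results of these data known. Meg3 was not analysed here. Some genes that the rule names are not reported here. Sequences came from RefSeq on GRCr8, and gene coordinates are those of the files.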

Additional observations from a re-analysis of the deposited data

Results flagged for a closer look

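Within the groups of 4 or 5 libraries, 108 pairs of group and member were searched for a single library far from the others, and 10 were found, where chance gives about 1 in 20. Of these, 7 were in the libraries that stood apart. The library labelled MEC LDeep P2 replicate 1 held 302 CPM of Igf2 against 3.82 to 6.87 in the other 4, 25.1 CPM of H19 against 1.04 to 2.54, and 90.4 CPM of Grb10 against 37.5 to 46.0. Its meningeal markers summed to 1315 CPM. The library labelled MEC LII P2 replicate 1 held 3.39 CPM of Plagl1 against 22.6 to 40.5. MEC LDeep P2 replicate 4 held 723 CPM of Peg3 against 501 to 548. LEC LDeep P45 replicate 4 held 2.64 CPM of Dlk1 against 0.973 to 1.01 and 0.220 CPM of H19, which was 1 count, where the other 3 had none.

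The other 3 lone values were 257 CPM of Ndn in MEC LDeep P45 replicate 2 (311 to 317 in the rest), 570.3 CPM of Snrpn in LEC LII P2 replicate 2 (670 to 709) and 17.7 CPM of Plagl1 in MEC LDeep P9 replicate 2 (11.1 to 11.9).

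The layer difference of Peg3 was called as differing between ages, by 0.44 on the log2 scale between P2/P9 and P23/P45, and between regions, by 0.57 between MEC and LEC, each by the interaction term of the edgeR quasi-likelihood fit. Neither was called without the 3 libraries of MEC at P2 that stood apart, and that with age not without all 5 (0.31, adjusted p = 0.0651 for Peg3).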

How the results depend on the processing

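Depth limits H19 and Dlk1, at 2160 and 942 counts in 64 libraries. Over all alternatives, 1442 of the values for single members kept direction and side of the threshold, 125 lost the call, 26 gained it and 48 changed sign. No cause was tested, except that fewer samples or genes enter where the setting says so.

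Replicate numbers did not pair every library by the rule used: of 96 same-number pairs within an age, 59 had r over 0.1 (median 0.17, -0.456 to 0.674). Of 300 different-number pairs, 86 had r over 0.1 (median -0.062). A total of 34 of 64 libraries correlated best with a library of their own number. Libraries of 1 number may thus come from the same rat. The main fit would then treat pieces of 1 rat as independent libraries, also in the age contrasts. With the replicate block, which cannot be fitted to age contrasts, 8 members were called by layer, 2 by region, 1 for each layer interaction and 6 in the layer contrast at P45.

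Member calls moved beyond 1.5 times as follows. In MEC alone they were 3 (P9 over P2), 2 (P23 over P9), 5 (layer), 2, 2, 1 and 0 (layer at P2, P9, P23 and P45). With the meningeal covariate they were 1 (P45 over P23), 2 (layer), 3, 1, 2 and 1 (layer at the 4 ages), 4 (region), 2 (layer by age), 1 (region by age) and 0 (layer by region), and 1739 genes were called by layer in all. With at least 10 counts in every library, where fewer members were tested, they were 3 (layer), 2, 3 and 3 (layer at P2, P9 and P45) and 1 (region), with 4353 genes by layer. Voom with TMM and quantile normalization gave 4 (layer), 3 (layer at P45) and 0 (region). A random replicate block gave 2 (P23 over P9) and 1 (region). Summed libraries gave 3 (P9 over P2). Without 5 libraries they were 4 (region) and 0 (layer by age), and without the 3 of MEC at P2 they were 0 for both layer interactions.

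Signs changed for values near 0 and under the covariate. By age these were Igf2 in MEC (0.18), Dlk1 (-0.16 voom, -0.29 random block, -0.017 LEC, -0.42 covariate, -0.18 without 3 and -0.13 without 5 libraries) and Grb10 (0.015 voom, 0.0073 no filter, 0.024 summed, 0.025 LEC, 0.041 covariate, 0.030 without the 2 length-shifted libraries). By layer the covariate gave Igf2 -0.26, H19 -0.50, Peg3 0.17 and Ndn 0.20, and MEC alone gave Peg3 0.087. At P2 it gave Igf2 -0.061, H19 -0.66 and Cdkn1c -0.0078, at P9 Ndn 0.16, at P23 Igf2 -0.89 and Cdkn1c -0.050, and at P45 Igf2 -0.21 and Ndn 0.043. By region these were Igf2 (-0.24 voom, -0.24 random block), Snrpn (-0.013 voom) and Grb10 (-0.0075 voom, -0.042 without 3 and -0.032 without 5 libraries).

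Leaving out 1 replicate number at 1 age gave 5 to 6 calls by age, 5 to 7 for P9 over P2, 3 to 4 for P23 over P9, 6 to 9 by layer, 4 to 5, 4 to 6, 3 to 5 and 3 to 6 at the 4 ages, 1 to 3 by region and 0 to 1 for each layer interaction. The LFC ran from -0.54 to 0.39 for Dlk1 and -0.036 to 0.041 for Grb10 by age, and from -0.040 to 0.044 for Grb10, -0.0088 to 0.55 for Igf2 and -0.025 to 0.18 for Plagl1 by region.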
